A study of Homo sapiens with 6 samples.

Results

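The genes described here are 9 components of the NRF2 antioxidant response, taken by gene symbol from the estimated gene counts of HEK 293T cells: NFE2L2, KEAP1, SQSTM1, GCLC, GCLM, TXNRD1, SRXN1, NQO1 and HMOX1. All 9 had counts in each library and all 9 passed the limit on low counts, out of 30270 genes in the table. The study asked how the transcriptome changes when TUT4 and TUT7 (also named TENT3A and TENT3B), the enzymes that add uridines to RNA 3′ ends, are both deleted. Total RNA depleted of ribosomal RNA was sequenced from 3 wild-type (WT) libraries and from 3 libraries of the double knockout line ΔTUT4/7. The libraries of each group were labelled as biological replicates. Both groups were HEK 293T, an immortalised human embryonic kidney line that carries the SV40 large T antigen. Both were grown in the same serum-supplemented medium, and no treatment was given to either. The WT cells came from a cell bank, whereas the knockout line had been made and published earlier and was passed on by another laboratory, so the history of the line and its genotype cannot be told apart. Whether the line is 1 clone is not given in the sources used here.

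NRF2, the product of NFE2L2, is the transcription factor that switches on the enzymes with which cells detoxify oxidants and electrophiles. In unstressed cells KEAP1, an adaptor of the CUL3 ubiquitin ligase, binds NRF2 and has it degraded. When oxidants modify KEAP1, or when the autophagy receptor p62 (SQSTM1) occupies it, NRF2 accumulates, pairs with a small MAF protein and binds antioxidant response elements near its target genes. Because this control acts on the NRF2 protein, the mRNA of NFE2L2 is not itself a measure of NRF2 activity, and protein was not measured in these libraries.

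The core of the antioxidant response element, TGACNNNGC, was searched on both strands of the RefSeq promoter windows (GRCh38.p14, 250 bases before to 50 after a start site). Windows were matched for 8 of the 9 genes, all but HMOX1, 13 windows in all. The core was found in 4 of these 13 windows (30.8%), which belong to KEAP1, GCLM and TXNRD1, against 13.3% of all 35116 windows. By gene this was 3 of 8 (37.5%), against 16.1% of all genes with a window. The related AP-1 core TGANTCA, which can share bases with it, was in 0 of the 13 and in 7.71% of all windows. The windows of SQSTM1, NFE2L2, NQO1, GCLC and SRXN1 held no match to the antioxidant response core. The stretches around the matches for GCLM, TXNRD1 and KEAP1 are given 5′ to 3′ on the strand of the gene, with the core in capitals. A core that lies on the opposite strand is printed as its reverse complement.
GCLM, chr1:93909446-93909474, minus strand: tacgatttctGCTTAGTCAttgtcttcca
TXNRD1, upstream start site, chr12:104215670-104215698, plus strand: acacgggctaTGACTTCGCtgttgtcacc
TXNRD1, downstream start site, chr12:104286920-104286948, plus strand: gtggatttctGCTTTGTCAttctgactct
KEAP1, chr19:10502807-10502835, minus strand: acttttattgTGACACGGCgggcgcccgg
KEAP1, chr19:10502784-10502812, minus strand: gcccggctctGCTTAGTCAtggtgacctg
The GCLM core lay 25 bases before its start site and the TXNRD1 cores shown lay 90 and 93 bases before theirs, while those of KEAP1 lay 45 and 22 bases before the start. A further match at TXNRD1, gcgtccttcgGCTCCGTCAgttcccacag (chr12:104215761-104215789, plus strand), reached over the upstream start site. These matches describe letters in the windows and do not show binding. A window without a match says only that the letters are not in those bases.

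The targeted genes check the labels, and 1 of them went against its label. TUT4 transcripts numbered 212, 216 and 206 CPM (counts per 1e+06 counts of the library, with library sizes scaled by the TMM method) in WT and 882, 920 and 917 in the libraries labelled ΔTUT4/7, a 4.29-fold rise (log2 fold change 2.10 ± 0.04 SE, edgeR quasi-likelihood test with Benjamini-Hochberg adjustment, adjusted p = 7.89e-19). TUT7 fell from 62.6 ± 2.17 to 26.3 ± 1.04 CPM (mean ± SD, n = 3 in each group here and below). Counts are summed over a whole gene and do not tell an intact transcript from one with a deletion, so the second group is called the libraries labelled ΔTUT4/7 throughout, and every direction below rests on that label. Library totals ran from 18757228 to 33148937 counts. Of the 10 markers of HEK 293T checked, VIM (496 to 1250 CPM), KRT18 and HOXA9 were higher. The 6 that were lower were PAX2, LHX1, KRT8, HOXD10, NEFM and NEFL (352 to 105 CPM). NEFM went from 969 CPM to 1 count in the 3 libraries labelled ΔTUT4/7 together. The endothelial marker PECAM1 had 7 counts over the WT libraries and 8 over the others, and the hepatocyte marker ALB had 14 and 4. What the shifts in the HEK 293T markers contribute to the results below was not tested.

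Of these NRF2 pathway genes 8 of 9 (88.9%) were higher in the libraries labelled ΔTUT4/7 at an adjusted p under 0.05, and 0 were lower. In the same test 28.6% of the 23952 tested genes were higher and 29.0% were lower, 57.7% in all. HMOX1, GCLM, TXNRD1 and SQSTM1 were higher by 2-fold or more, a size that 5.90% of tested genes reached upwards. The median log2 fold change of the 9 genes was 0.94, that of all tested genes -0.02 and that of the 15575 expressed genes, those averaging at least 50 counts, 0.06. Among those expressed genes 39.2% were higher. In 8 of the 9 genes every library labelled ΔTUT4/7 lay above every WT library, which 30.9% of tested genes showed (62.7% were apart in either direction). With library size alone as the scaling 7 of the 9 were higher, and the share of all called genes that were higher went from 49.6% to 40.1% (41.4% with upper-quartile scaling). The libraries are bulk and scaled to their totals, so a change of RNA per cell and a change in which cells were present cannot be told apart.

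**Figure D1:**
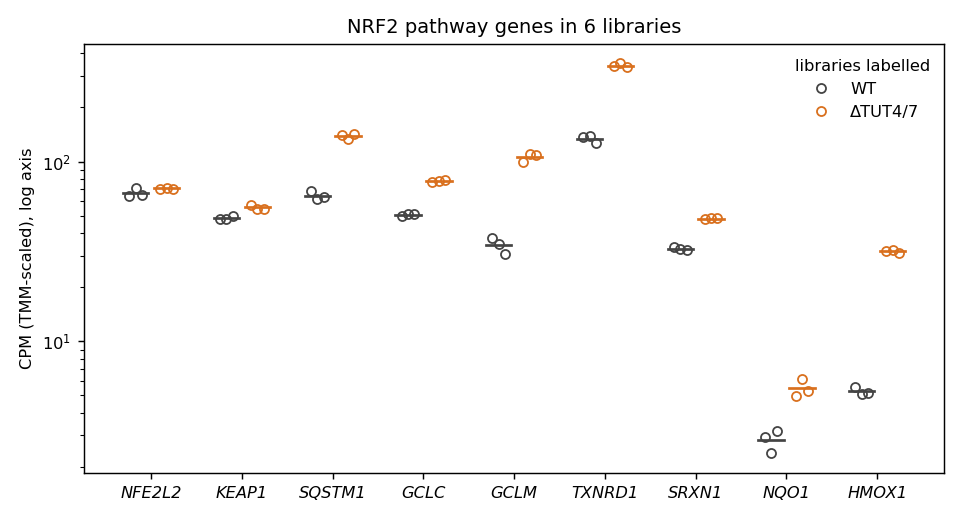
CPM of the 9 NRF2 pathway genes in each of the 6 libraries on a log axis, with WT in grey, the libraries labelled ΔTUT4/7 in orange and bars at the group means. The groups overlap for NFE2L2 alone, and the widest gap is that of HMOX1, from 5.28 ± 0.233 to 31.7 ± 0.799 CPM.

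Of the 3 regulators, NFE2L2 and KEAP1 changed the least of all 9 genes. NFE2L2 (chromosome 2, 177227595 to 177392697, minus strand) was at 64.6, 71.3 and 65.4 CPM in WT and at 70.6, 71.7 and 70.2 CPM in the libraries labelled ΔTUT4/7. Its groups overlapped, since WT replicate 2 lay above 2 of the 3 libraries labelled ΔTUT4/7. The difference was 1.06-fold with a 95% interval of 0.976 to 1.14 (adjusted p = 0.231, edgeR), and its log2 value of 0.08 turned to -0.04 with library size alone and to -0.02 with upper-quartile scaling. With an offset for GC content and length it was 0.25 and passed the test (adjusted p = 7.36e-05). A lncRNA on the same strand, AC019080.1, overlaps NFE2L2. It was given 557 counts over the 6 libraries, 5.48% of the 10156 of NFE2L2, and fell by 3.15 on the log2 scale, and how the counting model divided reads between the 2 genes is uncertain. This lncRNA and the other overlapping genes below were looked up after the values had been seen.

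KEAP1 (chromosome 19, 10486125 to 10503558, minus strand), whose product holds NRF2 down, was at 48.2, 47.7 and 49.8 CPM in WT and at 57.5, 54.4 and 54.7 CPM in the libraries labelled ΔTUT4/7. The groups did not overlap, but the rise was small, at 1.14-fold (log2 0.19 ± 0.06 SE, adjusted p = 0.00507 in edgeR). The call was lost with library size alone (log2 0.08, adjusted p = 0.245), with upper-quartile scaling (0.09, 0.161) and with the GC and length offset (0.11, 0.0719), and in the 16 alternatives tested the adjusted p ran from 0.00523 to 0.245. Per kb of exon, the NFE2L2 to KEAP1 ratio was 0.320, 0.356 and 0.313 in WT and 0.293, 0.314 and 0.306 in the other group. These ratios overlapped (exact two-sided permutation p = 0.2), and their size, unlike their change between groups, depends on the exon lengths used.

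SQSTM1 (chromosome 5, 179806398 to 179838078, plus strand) encodes p62, the cargo receptor that carries ubiquitinated proteins to autophagosomes and competes with NRF2 for KEAP1. It was the regulator that moved, from 68.2, 61.8 and 63.1 CPM in WT to 140, 133 and 143 CPM in the libraries labelled ΔTUT4/7. All 3 of the latter lay far above WT, at 2.16-fold (log2 1.11 ± 0.05 SE, 95% interval 1.00 to 1.22, adjusted p = 9.19e-14 in edgeR). Whether SQSTM1 rose before or after the other genes of the pathway was not tested. MGAT4B and MRNIP overlap its ends on the opposite strand and were higher by 0.24 and 0.27 on the log2 scale. Whether the counting used strand is not given in the sources used here, so reads at those ends cannot be assigned with certainty.

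GCLC and GCLM encode the catalytic and the modifier subunit of glutamate-cysteine ligase, the rate-limiting enzyme of glutathione synthesis. GCLC (chromosome 6, 53497341 to 53616970, minus strand) was at 50, 51.0 and 50.9 CPM in WT and at 77.4, 77.8 and 78.7 CPM in the libraries labelled ΔTUT4/7, with little spread in either group. The rise was 1.54-fold (log2 0.62 ± 0.05 SE, adjusted p = 9.93e-10). GCLM (chromosome 1, 93885199 to 93909456, minus strand), whose core motif is shown above, went from 37.7, 34.6 and 30.6 CPM to 99.7, 110 and 109 CPM. No library came near the other group, and the rise was 3.10-fold (log2 1.64 ± 0.07 SE, 95% interval 1.49 to 1.78, adjusted p = 1.49e-13). Per kb of exon, GCLC to GCLM was 0.836, 0.928 and 1.05 in WT and 0.488, 0.447 and 0.453 in the libraries labelled ΔTUT4/7. The ranges were apart, 2.02-fold lower in the latter (exact two-sided permutation p = 0.1, the smallest that 3 against 3 libraries can give, and 0.114 after Benjamini-Hochberg adjustment over 8 ratios).

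The thioredoxin arm held the most abundant gene of the pathway. TXNRD1 (chromosome 12, 104215779 to 104350307, plus strand), the cytosolic selenoenzyme that reduces thioredoxin with NADPH, was at 137, 138 and 126 CPM in WT and at 339, 351 and 335 CPM in the libraries labelled ΔTUT4/7. The groups were well apart, with a 2.56-fold rise (log2 1.36 ± 0.05 SE, 95% interval 1.26 to 1.45, adjusted p = 8.09e-16). Its span contains EID3, with 507 counts over the 6 libraries, which was higher by 1.47 on the log2 scale. It also contains the ribosomal protein pseudogene RPL18AP3, which held 38346 counts, 112% of those of TXNRD1, and was higher by 0.35. SRXN1 (chromosome 20, 646615 to 653200, minus strand) encodes sulfiredoxin, which restores peroxiredoxins that have been over-oxidised. It went from 33.3, 32.8 and 32.2 CPM to 47.6, 48.4 and 48.4 CPM. The libraries of a group differed by little, and the rise was 1.47-fold (log2 0.55 ± 0.06 SE, adjusted p = 5.17e-08).

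NQO1 and HMOX1 were the genes with the fewest transcripts in WT. NQO1 (chromosome 16, 69706996 to 69726668, minus strand), a flavoprotein that reduces quinones and is often read as the standard NRF2 target, was at 2.95, 2.38 and 3.16 CPM in WT and at 4.96, 6.19 and 5.26 CPM in the libraries labelled ΔTUT4/7. These levels rest on 58 to 159 counts a library, and the groups did not overlap. The rise was 1.93-fold with the widest error of the 9 genes (log2 0.94 ± 0.17 SE, 95% interval 0.59 to 1.29, adjusted p = 5.35e-05).

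HMOX1 (chromosome 22, 35380361 to 35394214, plus strand) encodes the inducible haem oxygenase, which opens haem to biliverdin, iron and carbon monoxide. In WT it was at 5.55, 5.11 and 5.18 CPM, from 109 to 159 counts, and in the libraries labelled ΔTUT4/7 at 31.8, 32.4 and 30.8 CPM, from 603 to 1020 counts. It had the largest change of the 9, 5.99-fold (log2 2.59 ± 0.09 SE, 95% interval 2.40 to 2.78, adjusted p = 1.10e-15 in edgeR). By log2 fold change it ranked 76 of the 15575 expressed genes, GCLM 214, TXNRD1 346 and SQSTM1 638. NQO1 ranked 1060, GCLC 2496 and SRXN1 3008. KEAP1 at 6336 and NFE2L2 at 7609 lay well inside the bulk of genes. Leaving out any 1 library left 8 of the 9 genes higher and 0 lower.

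Each gene was set beside its chromosomal neighbours, that is, the expressed genes within 5 Mb, with no test. HMOX1 had the highest log2 fold change among its 109 neighbours, whose median was -0.31, and GCLM among its 47, whose median was 0.11. SQSTM1 ranked 2 among 78 neighbours with a median of 0.18. GCLC rose although its 33 neighbours had a median of -0.32, a difference of 0.94. Around TXNRD1 the neighbours were themselves higher, 35 of 62 against 9 lower, with a median of 0.30, which leaves 1.06 of its 1.36. The medians around KEAP1 (204 genes), NQO1 (127) and SRXN1 (57) were -0.01, 0.08 and 0.07. NFE2L2, at 0.08, stood 0.31 above the median of its 57 neighbours, -0.23, and lay within their quartiles of -0.68 to 0.27.

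**Figure D2:**
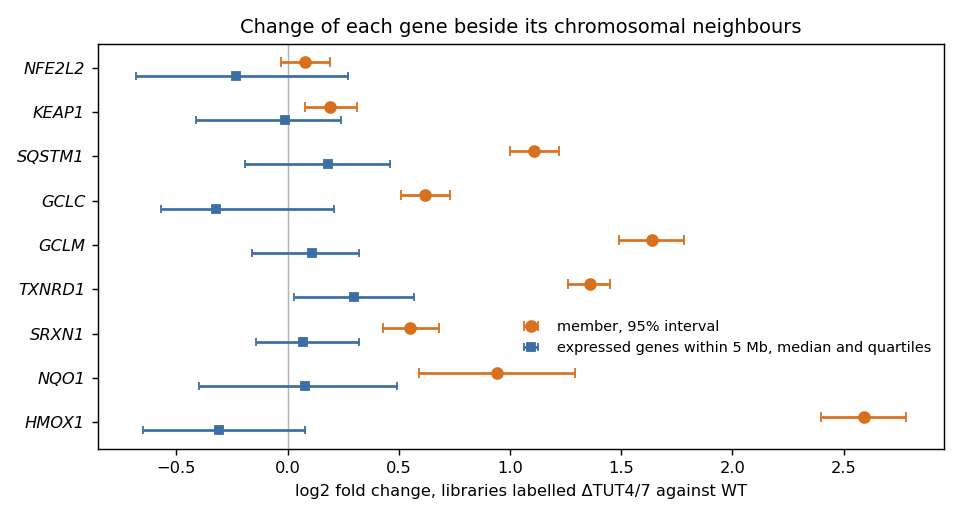
Log2 fold change of each NRF2 pathway gene between the libraries labelled ΔTUT4/7 and WT with its 95% interval (orange), and the median and quartiles of expressed genes within 5 Mb (blue). The intervals of HMOX1, GCLM, TXNRD1, SQSTM1, GCLC, SRXN1 and NQO1 lie above the upper quartile of their neighbours, and those of NFE2L2 and KEAP1 do not.

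Levels of different genes were compared as CPM per kb of merged exons (GENCODE release 44). In WT the order was TXNRD1 at 19.9, KEAP1 at 13.6, SRXN1 at 13, SQSTM1 at 8.54, GCLM at 6.32, GCLC at 5.88, NFE2L2 at 4.48, HMOX1 at 2.29 and NQO1 at 0.954. GCLM and GCLC overlapped between libraries and could not be ordered, whereas each other pair of neighbours in this order was apart. In the libraries labelled ΔTUT4/7, TXNRD1 was again first at 50.9. GCLM at 19.6, SRXN1 at 19.0 and SQSTM1 at 18.4 followed, with overlapping ranges, and then KEAP1 at 15.5, HMOX1 at 13.7, GCLC at 9.05, NFE2L2 at 4.73 and NQO1 at 1.84. On this scale KEAP1 went from the second place to the fifth, while HMOX1 went from below NFE2L2 to above it. The places rest on the merged length, which takes in exons of every annotated transcript. That length was 14975 bases for NFE2L2, 3573 for KEAP1 and 2306 for HMOX1. In CPM without length NFE2L2 lay above KEAP1 in both groups (67.1 and 48.6 in WT, 70.8 and 55.5 in the other). HMOX1, at 31.7 CPM in the libraries labelled ΔTUT4/7, stayed below NFE2L2.

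Ratios taken within a library do not depend on scaling between libraries, and they set each gene beside a relative that does related work. Of 8 ratios, 7 had ranges that did not overlap, each at an exact two-sided permutation p of 0.1 (0.114 adjusted), the smallest possible. Of single tested genes 62.7% were apart in either direction, and the share over all pairs of genes was not computed. The count of 7 is therefore not read as a result about the pathway. HMOX1 to HMOX2, the constitutive haem oxygenase, was 0.274, 0.292 and 0.283 in WT and 1.05, 1.04 and 1.03 in the libraries labelled ΔTUT4/7. Per kb of merged exons the inducible form thus went from well below the constitutive one to about its level. In CPM without length HMOX1 stayed below HMOX2 in the latter libraries, at 31.7 against 44.5. HMOX2 itself rose by 0.70 on the log2 scale. TXNRD1 to TXNRD2, the mitochondrial reductase, went from 10.6 ± 0.815 to 26.6 ± 1.07, with TXNRD2 at 15.5 ± 1.82 and 15.7 ± 0.899 CPM (adjusted p = 0.835, edgeR). NQO1 to NQO2 went from 0.141 ± 0.0156 to 0.221 ± 0.0314. SQSTM1 to NBR1, another autophagy receptor, went from 0.519 ± 0.0267 to 1.47 ± 0.0446. SRXN1 moved the other way against the peroxiredoxin PRDX1, from 0.0690 ± 0.00514 to 0.0416 ± 0.000338, since PRDX1 rose by more than SRXN1. The ratio of NFE2L2 to BACH1, a repressor that competes for the same DNA elements, went from 0.454 ± 0.00756 to 0.602 ± 0.0297, with BACH1 down from 75.6 ± 2.93 to 60.4 ± 3.53 CPM (log2 -0.33 ± 0.06 SE, adjusted p = 3.54e-05).

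**Figure D3:**
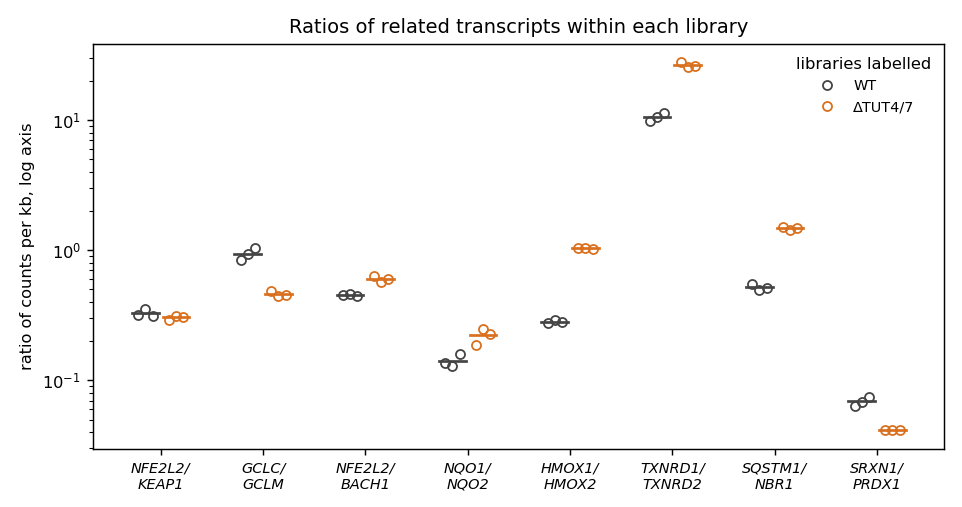
Ratio of counts per kb of exon for 8 gene pairs within each of the 6 libraries on a log axis, with WT in grey, the libraries labelled ΔTUT4/7 in orange and bars at the group means. The groups overlap for NFE2L2/KEAP1, and HMOX1/HMOX2 has the largest difference, from 0.283 ± 0.00889 to 1.04 ± 0.0114.

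Counts in 4 lists of related genes are read against the 28.6% of tested genes that were higher and the 29.0% that were lower, or the 39.2% and 31.7% of expressed genes. Of 24 partners and regulators of NRF2, 9 were higher (37.5%), 7 lower (29.2%) and 8 did not pass the test, with a median log2 fold change of 0.11, which is near these shares. PGAM5, a mitochondrial phosphatase that binds KEAP1, rose from 29.4 ± 2.44 to 100 ± 2.02 CPM (log2 1.76 ± 0.06 SE, adjusted p = 8.83e-16). AMER1 and BTRC were higher by 0.89 and 0.53 on the log2 scale. USP11, a deubiquitinase, fell from 256 ± 8.82 to 138 ± 6.61 CPM, and FBXW11 fell by 0.18, a call lost with the GC and length offset (adjusted p = 0.0538). The count of lower genes was 4 with that offset and 4 without ΔTUT4/7 replicate 2.

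Of 53 other NRF2 target genes 48 could be tested, and 22 were higher (45.8%), 11 lower (22.9%) and 15 did not pass, with a median of 0.25. The expressed genes had 39.2% and 31.7%. MGST1, a microsomal glutathione transferase, rose from 44.3 ± 1.78 to 123 ± 6.63 CPM, PRDX1 from 318 ± 28.8 to 770 ± 6.61 CPM and the efflux pump ABCC4 from 32.0 ± 3.79 to 79.7 ± 0.953 CPM. SLC7A11, the cystine importer that feeds glutathione synthesis, fell in the same libraries, from 213, 239 and 210 CPM in WT to 80.4, 78.1 and 80.4 CPM (log2 -1.47 ± 0.05 SE, adjusted p = 1.56e-15). SLC6A9, a glycine transporter, fell from 33.6 ± 0.166 to 5.99 ± 1.23 CPM, and MGST2 from 12.9 ± 1.12 to 4.46 ± 0.704 CPM. GCLC and GCLM thus rose in the libraries in which SLC7A11 and SLC6A9 fell. After the values had been seen, the targets were also grouped by function. Of the genes that supply NADPH, TKT rose from 195 ± 15.7 to 321 ± 6.53 CPM and IDH1 from 65.0 ± 4.02 to 116 ± 0.495 CPM. Of 8 genes of iron and haem 5 were higher (62.5%), with 1 lower (12.5%). The 5 include HMOX2, set above beside HMOX1 as the constitutive form. Of 15 genes of glutathione supply, transfer and export, 4 were higher (26.7%) and 5 lower (33.3%). All tested genes had 28.6% and 29.0%, and the expressed genes 39.2% and 31.7%.

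The 28 other antioxidant enzymes tested had a median of -0.00, with 8 higher (28.6%) and 11 lower (39.3%). The 18 autophagy partners of SQSTM1 had a median of -0.06, with 6 higher (33.3%) and 9 lower (50%). All tested genes of both lists averaged at least 50 counts. Of the expressed genes 39.2% were higher and 31.7% lower, and of all tested genes 28.6% and 29.0%. Of the autophagy genes, TBK1, a kinase that phosphorylates p62, rose from 63.9 ± 0.988 to 104 ± 4.69 CPM. GABARAPL1 was higher by 0.54 and FYCO1 by 0.39 on the log2 scale, whereas the receptor CALCOCO2 fell by 0.73, WDFY3 by 0.66, GABARAPL2 by 0.79 and NBR1 by 0.40. SQSTM1, at 2.16-fold, had a larger change than each of the 18.

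**Figure D4:**
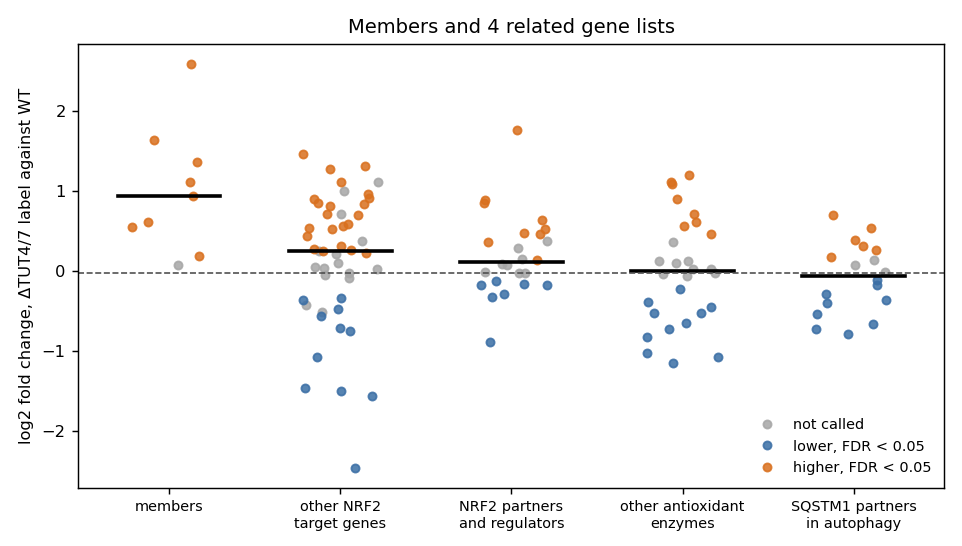
Log2 fold change of each tested gene, with 1 point a gene, for the 9 NRF2 pathway genes and 4 related lists, coloured by call, with bars at list medians and a dashed line at the median of all tested genes, -0.02. The 9 genes lie between 0.08 and 2.59, while each of the other lists spreads to both sides of 0.

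Among the 118 tested genes of the 4 lists, those whose log2 CPM over the 6 libraries was most like that of NFE2L2 were MSRB3 (Pearson r = 0.892), TRIM16 (0.842) and ME1 (0.821). Part of each r comes from the 2 groups that the libraries share. MSRB3 and TRIM16, like NFE2L2, did not pass the test between groups, with log2 fold changes of 0.10 and 0.05, although MSRB3 passed with the GC and length offset (0.18, adjusted p = 0.0129). ME1 was higher by 0.28.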

How the data were processed

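Total RNA of 6 HEK 293T libraries was analysed. Read pairs were mapped by the authors with STAR 2.7.3a (hg38), and the deposited values are estimated counts per gene of Ensembl release 102 from Partek Flow 10.0.22 and its expectation-maximisation model. The strand setting is not given in the sources used here. A further deposited table of the authors' own comparison (p-values, FDR, ratios, fold changes and group means) was not used.

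Estimated counts were rounded. Genes with a largest count above 12, the study's limit, were tested (23952 of 30270) with TMM scaling and the quasi-likelihood test of edgeR 4.0.16 (R 4.3.3, no covariate). P-values were adjusted over every tested gene after Benjamini and Hochberg, and genes were called at 0.05. All adjusted p-values are from this test unless another is named. The edgeR steps were also run on simulated counts with 200 changed genes. That is far fewer than were called here, so the simulation does not check the scaling under so broad a change. Ratios of counts per kb were compared by exact two-sided permutation tests.

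Alternatives were other scalings (library size alone, RLE, upper quartile), DESeq2 1.42.0, limma 3.58.1 (voom, and log2(CPM + 1)), other count limits, a GC and length offset, subtraction of neighbours, a replicate block and each library left out. The genes and lists were chosen with earlier results of these data known. The named genes are the 9 genes, TUT4, TUT7, the genes of the ratios, from each list the 3 with the smallest p in each direction, and the 3 most like NFE2L2. Others were chosen after their values had been seen, and this is said beside them. Values of some list and marker genes are not reported here.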

Additional observations from a re-analysis of the deposited data

How the results depend on the processing

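HMOX1, GCLM, TXNRD1, SQSTM1, GCLC, SRXN1 and NQO1 kept their direction and their call in all 16 alternatives with a test. Their log2 fold changes ran from 2.38 to 2.61, 1.52 to 1.72, 1.24 to 1.44, 1.00 to 1.15, 0.51 to 0.75, 0.44 to 0.56 and 0.76 to 1.03. The number of the 9 genes called higher was 7 or 8. Library size alone moved the median of all tested genes by -0.11 and upper-quartile scaling by -0.10. Under these 2 scalings the log2 fold change of NFE2L2 was -0.04 and -0.02, that of TXNRD2 -0.09 and -0.07, that of MSRB3 -0.02 and -0.00 and that of TRIM16 -0.06 and -0.05, all with the sign turned and none called. With a mean count of 50 or more TXNRD2 was -0.04 and TRIM16 -0.01, without WT replicate 3 they were -0.08 and -0.02, and TXNRD2 was -0.02 without ΔTUT4/7 replicate 2 and -0.00 with the GC and length offset. Over the libraries left out 1 at a time, TXNRD2 ran from -0.08 to 0.09 and TRIM16 from -0.02 to 0.14. The offset and the omission of ΔTUT4/7 replicate 2 each lowered the regulators called lower from 7 to 4, and over the libraries left out 1 at a time that count ran from 4 to 7. The cause was not tested. The call of NQO2 was lost with library size alone (adjusted p = 0.0619) and with the offset (0.0647), with which MSRB3 was called higher (0.18, adjusted p = 0.0129).

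Replicate numbers are shared between the groups. Deviations of same-numbered libraries correlated at 0.052, -0.011 and -0.022 over 15575 genes, and those of differently numbered libraries at -0.09 to 0.095. No deviation shared by number was thus seen, but this cannot show whether same-numbered libraries were prepared together. With the replicate block 6832 genes were higher and 6846 lower, against 6855 and 6958 without it, and 8 of the 9 genes were higher. The smallest p that the ratios could give is 0.1, which limits them to a description. With 3 libraries a group no test for single outlying libraries was made.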

Other observations

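The enzymes named here were chosen after their values had been seen, in a comparison that called 57.7% of tested and 70.9% of expressed genes. The sestrins are stress proteins that restrain mTORC1 signalling. SESN1 fell from 67.1 ± 3.50 to 30.3 ± 0.903 CPM, SESN2 from 91.9 ± 12.1 to 45.2 ± 4.0 CPM and SESN3 from 253 ± 15.7 to 176 ± 1.44 CPM in the libraries labelled ΔTUT4/7. Peroxiredoxins, the peroxidases that SRXN1 repairs or that work beside its substrates, divided. PRDX1, PRDX3, PRDX4 and PRDX6 were higher, with PRDX3, the mitochondrial form, at 140 ± 5.38 and 262 ± 14 CPM, while PRDX2 fell from 153 ± 9.36 to 111 ± 6.53 CPM and PRDX5 from 38.2 ± 4.94 to 32.7 ± 1.5 CPM.

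Methionine sulfoxide reductases divided as well. MSRB1, a selenoprotein, rose from 13.8 ± 0.642 to 29.3 ± 2.06 CPM and MSRB2 fell from 15.5 ± 1.79 to 7.26 ± 0.264 CPM, while MSRA was at 2.14 ± 0.149 and 2.78 ± 0.628 CPM (adjusted p = 0.152, edgeR). Of the superoxide dismutases, the cytosolic SOD1 rose by 0.71 on the log2 scale, and the mitochondrial SOD2 fell by 0.39. Of the glutaredoxins, GLRX3 and GLRX5 were higher by 1.20 and 0.62 on the log2 scale, GLRX fell by 0.82, and GLRX2 was at 0.12 (adjusted p = 0.0964). Of the glutathione peroxidases, GPX1 was higher by 1.12 and GPX8 fell by 0.65, while GPX2 was at -0.43 (adjusted p = 0.158), GPX3 at -0.06 (0.668) and GPX4 at 0.12 (0.269). TXN, the substrate of TXNRD1, rose from 126 ± 0.743 to 248 ± 21.2 CPM.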
